A study of Mus musculus with 2 samples.

Results

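The genes of cholesterol synthesis and handling were 34 of the 32285 genes counted in each library, and all 34 were found by their symbols. Of these, 19 encode enzymes that build cholesterol, and 15 encode proteins that control the pathway or that move, store, export or break down cholesterol. They were chosen by name and function, a rule that uses no measured value, although earlier results of these data were known when they were chosen.

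Cells build cholesterol from acetyl-CoA by way of mevalonate, squalene and lanosterol, and a tail of sterol intermediates leads from lanosterol to cholesterol. When sterol is scarce in the endoplasmic reticulum, SCAP carries the SREBP factors to the Golgi, where they are cut free to switch on the synthesis genes, and INSIG proteins hold SCAP back when sterol is plentiful. Oxysterols that build up in a loaded cell activate the LXR receptors, which switch on the exporters ABCA1 and ABCG1. The brain makes its own cholesterol behind the blood-brain barrier, oligodendrocytes need it for myelin, and neurons clear a surplus through the hydroxylase CYP46A1.

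Nuclei were isolated from frozen brain tissue of male C57BL/6J mice that the labels put at 6 to 8 weeks of age and the methods of the study at a somewhat older range, and no transgene, deletion or drug is named for either library. The SAH library pooled tissue of 3 mice killed 12 h after subarachnoid haemorrhage by endovascular perforation, from the injured hemisphere between the medial prefrontal cortex and the centrolateral nucleus of the thalamus. The Normal library pooled the same region of 3 mice that the labels call normal, whereas the methods of the study describe sham-operated controls, so whether these mice had surgery is not settled. Each condition was thus a single library of pooled mice, no test between conditions was possible, and the condition and the library cannot be told apart.

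The Normal library held 12204 nuclei and 114970719 UMIs (unique molecular identifiers, each a counted RNA molecule), and the SAH library held 18209 nuclei and 172604358 UMIs. The study describes more nuclei for its control than for SAH, the reverse of these files, so each direction below is that of the libraries as labelled. Marker genes placed 1740 Normal and 3425 SAH nuclei in the oligodendrocyte class, 8048 and 10514 in the neuron class, and 939 and 1173 in the microglia class. All 12 oligodendrocyte, all 8 neuron and all 11 microglia markers were detected in their own class. Median depth was 1900 and 2203 UMIs per nucleus in oligodendrocytes, 9341.5 and 11107 in neurons, and 1404 and 1785 in microglia. Only 15 Normal and 16 SAH nuclei were classed as astrocytes, by at least 40 marker UMIs per 10000 UMIs and no place in another class. The study names astrocytes among its cell types. With so few nuclei here, the cell type best known for supplying cholesterol to neurons could not be described. The libraries shared 78 barcode sequences. Levels are given in CPM, the UMIs of a gene per 1000000 UMIs of the class, with 95% intervals in square brackets. These intervals cover counting error only, not differences between mice or libraries.

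Synthesis genes took up a larger share of the UMIs of oligodendrocytes than of those of neurons in both libraries. In the Normal library 15 of the 19 synthesis genes lay at least 1.5-fold higher in CPM in oligodendrocytes than in neurons and 0 lay that far lower, against 27.8% of all genes higher and 39.9% lower, with a median log2 ratio of 1.12. In the SAH library 11 of 19 lay higher and 0 lower, against 31.9% and 38.0% of all genes, with a median of 0.79. Counted per nucleus the order was the reverse, in nuclei whose median depth was also greater in neurons. The synthesis genes gave 1.67 UMIs per oligodendrocyte and 3.43 per neuron in Normal, and the order was the same in SAH. The log2 ratio of CPM was widest for *Lbr*, a sterol reductase that also anchors lamins at the nuclear envelope, at 2.91 [2.74, 3.07] in Normal and 3.18 [3.07, 3.29] in SAH. It was 2.32 [2.04, 2.59] and 2.45 [2.18, 2.71] for the sterol isomerase *Ebp*. For *Dhcr7*, the reductase of the last step of one branch, it went from 0.57 [0.19, 0.93] in Normal to -0.17 [-0.58, 0.21] in SAH, so its oligodendrocyte level stood above the neuronal one in the Normal library alone.

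The handling genes were spread differently over the classes. *Srebf1*, *Npc2* and *Abca1* stood far higher in oligodendrocytes than in neurons, with log2 ratios in the Normal library of 3.66 [3.38, 3.94], 3.68 [3.52, 3.85] and 3.50 [3.33, 3.67]. *Cyp46a1* went the other way, at -2.35 [-2.87, -1.87], as did *Mylip*, at -1.99 [-2.90, -1.21], a ubiquitin ligase that marks lipoprotein receptors for breakdown. Microglia had the highest *Abca1* level of the 3 classes, 477 [441, 514] CPM in Normal and 603 [571, 636] CPM in SAH. *Mylip* and the esterifying enzyme *Soat1* were also highest there, at 374 and 103 CPM in Normal and at 351 and 119.8 CPM in SAH. In microglia 6 of 19 synthesis genes reached 50 UMIs over both libraries, the least at which a gene was compared between conditions. The summed synthesis level there was 232 CPM in Normal and 230 CPM in SAH, against 304 and 231 CPM in neurons.

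**Figure D1:**
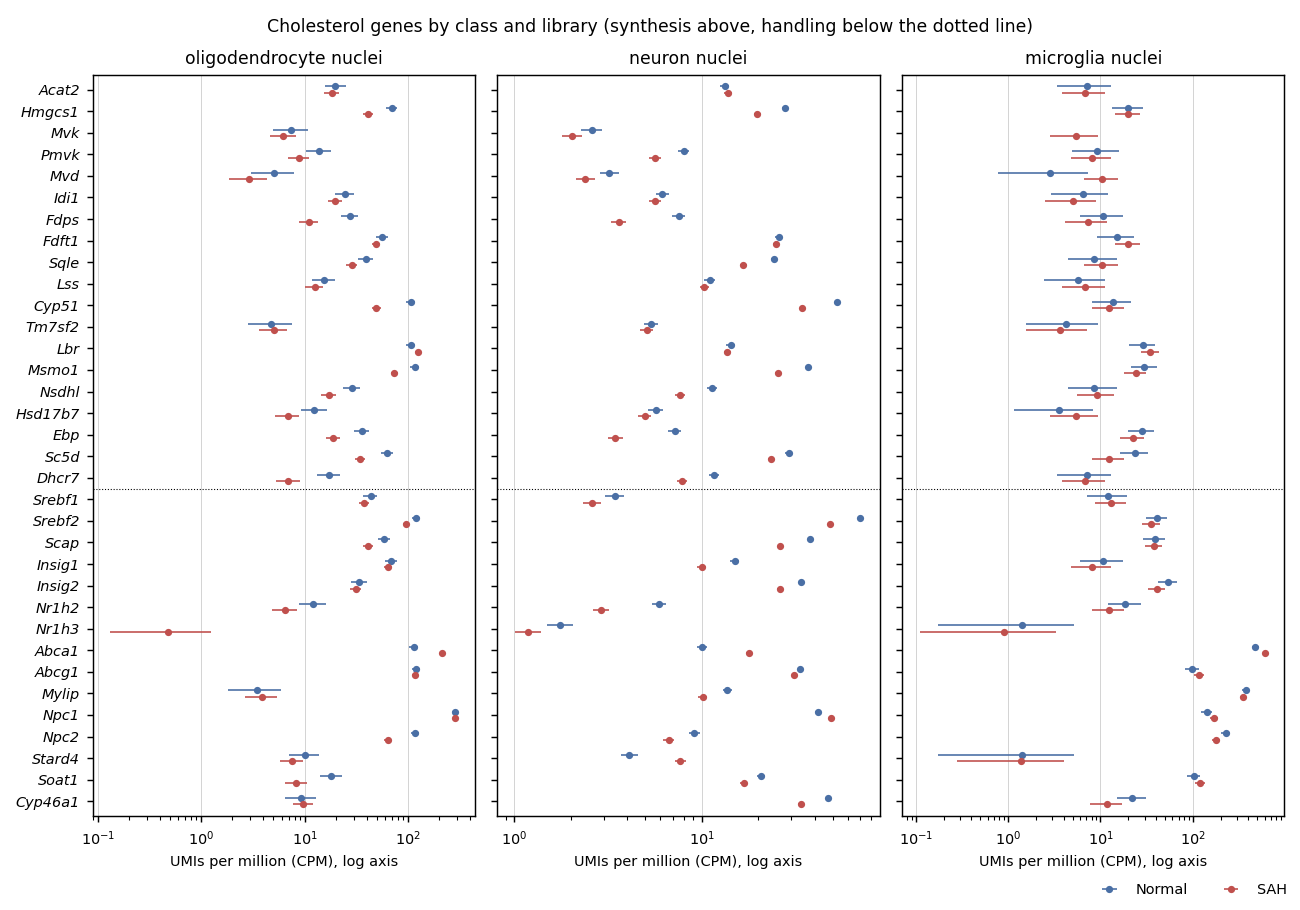
Level of each of the 34 genes in the 2 libraries, in CPM on a log axis, for oligodendrocyte, neuron and microglia nuclei. Points are the level of 1 library and bars its 95% counting interval, and a gene with 0 UMIs in a library has no point there. *Cyp51* lies at 107 CPM in Normal and 49.6 CPM in SAH oligodendrocytes, and *Abca1* at 114 and 212 CPM.

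In oligodendrocytes, the synthesis genes lay lower in the SAH library than in the Normal library. Of 18 synthesis genes compared, 10 lay at least 1.5-fold lower and 0 at least 1.5-fold higher. Of all 11335 genes compared in this class, 18.7% lay as far lower and 14.7% as far higher, and among the genes nearest in level to the members 18.3% lay as far lower. The median log2 ratio of SAH over Normal was -0.65 over the synthesis genes and -0.07 over all genes. Summed over the pathway, the level went from 771 to 536 CPM, with a log2 ratio of -0.52 [-0.59, -0.46].

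The sterol tail held most of these genes. In it 7 of 9 genes lay at least 1.5-fold lower, with a median log2 ratio of -0.86, against 3 of 6 in the mevalonate arm, with a median of -0.49, and 0 of 3 in the squalene and lanosterol steps, with a median of -0.30. Whether the arms differ was not tested.

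Within the tail, *Cyp51*, the lanosterol demethylase and first step after lanosterol, lay at 107 [96.8, 118] CPM in Normal and 49.6 [44.9, 54.6] CPM in SAH, from 403 and 412 UMIs. Its log2 ratio was -1.11 [-1.31, -0.91]. *Dhcr7*, which makes cholesterol from its direct precursor, lay at 17.3 and 6.98 CPM, with a log2 ratio of -1.31 [-1.84, -0.77]. Both genes stood at less in SAH than the lower end of their interval in Normal. *Ebp* went from 35.8 to 18.9 CPM (-0.92 [-1.27, -0.58]), and *Sc5d*, the desaturase one step before *Dhcr7*, from 62.6 to 34.5 CPM (-0.86 [-1.11, -0.61]). The demethylation enzymes that follow *Cyp51* had ratios of -0.64 [-0.82, -0.46] for the oxidase *Msmo1*, -0.74 [-1.11, -0.36] for the dehydrogenase *Nsdhl* and -0.86 [-1.45, -0.27] for the ketoreductase *Hsd17b7*. The pair of reductases that act just after *Cyp51* did not go along. *Lbr* lay at 107 and 124 CPM, with a log2 ratio of 0.22 [0.05, 0.39], and *Tm7sf2* at 4.78 and 5.05 CPM (0.08 [-0.75, 0.96]), from 60 UMIs. *Tm7sf2* overlaps *Vps51* on the same strand and *Lbr* overlaps *Gm26004*, so UMIs in the shared stretches cannot be fully assigned.

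In the mevalonate arm, *Fdps*, which joins isoprene units into farnesyl diphosphate, had the lowest ratio of the pathway, at 27.3 [22.3, 33.2] CPM in Normal and 10.9 [8.81, 13.4] CPM in SAH (-1.32 [-1.74, -0.90]). Thinned to 1000 UMIs per nucleus, its ratio was -2.10, and it overlaps *Gm43738* and *Gm22935* on the same strand. *Hmgcs1*, the cytosolic HMG-CoA synthase, went from 70.1 [61.9, 79.1] to 40.9 [36.7, 45.5] CPM (-0.78 [-1.01, -0.54]). The kinase *Pmvk* stood at 13.8 and 8.78 CPM (-0.65 [-1.19, -0.11]). These 3 genes lay past 1.5-fold, and the other genes of the arm did not. The isomerase *Idi1* had a ratio of -0.32 [-0.70, 0.06], the mevalonate kinase *Mvk* one of -0.25 [-0.94, 0.47] and the thiolase *Acat2* one of -0.11 [-0.52, 0.30], all with intervals that include 0. *Mvd*, the decarboxylase, was not compared, with 19 and 24 UMIs. Among the middle steps, the squalene epoxidase *Sqle* had a ratio of -0.46 [-0.76, -0.15], the lanosterol synthase *Lss* one of -0.30 [-0.78, 0.19] and the squalene synthase *Fdft1* one of -0.18 [-0.43, 0.06].

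**Figure D2:**
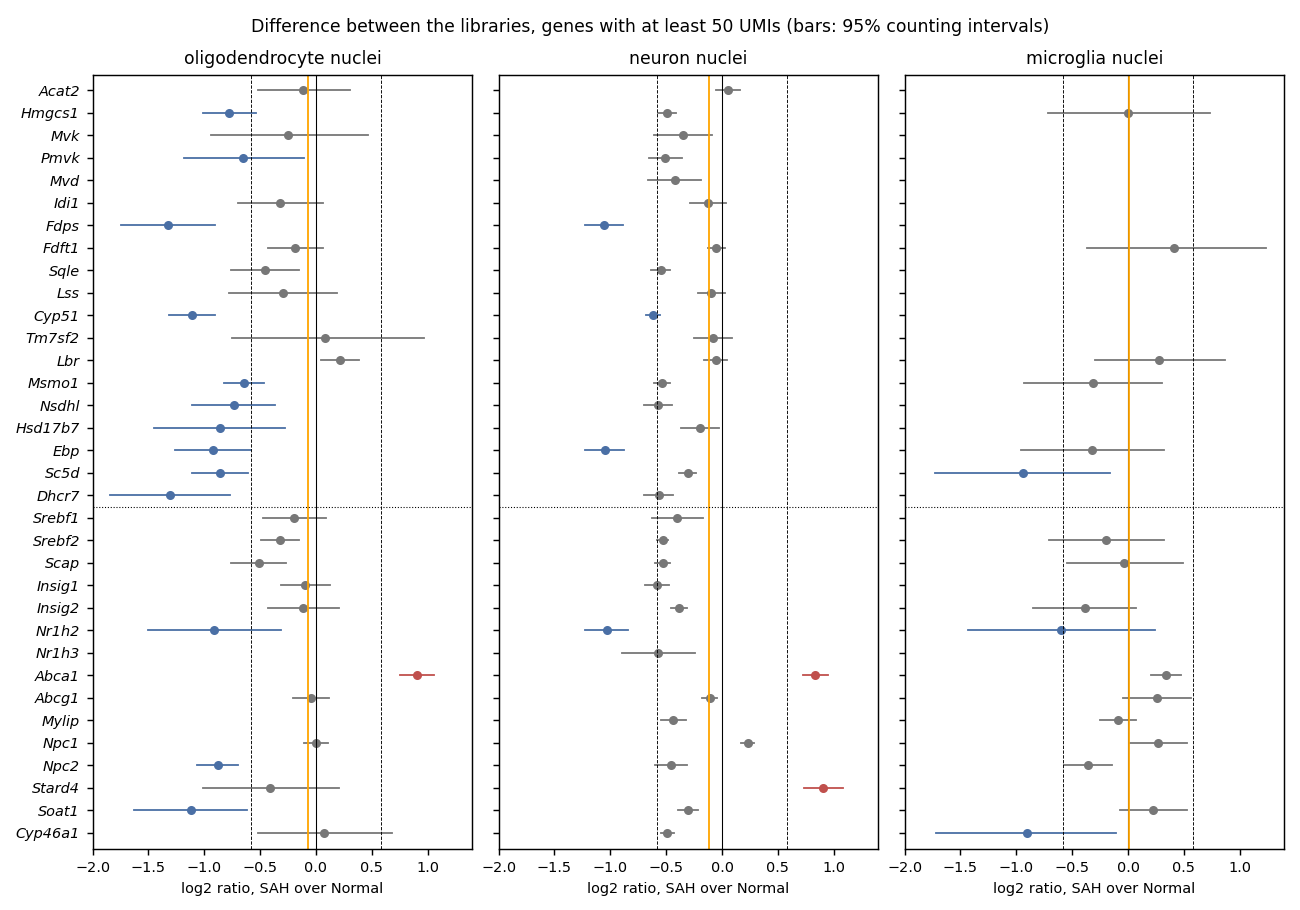
Log2 ratio of SAH over Normal for each gene with at least 50 UMIs, with 95% counting intervals. Dashed lines mark 1.5-fold, the orange line the median of all genes compared, and blue and red points the genes at or past 1.5-fold. In oligodendrocytes 10 of 18 synthesis genes are blue, and *Abca1* is the 1 red point in that class.

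The share of nuclei with a UMI moved with the levels when nuclei were thinned to 1000 UMIs. Nuclei with fewer UMIs were left out of the thinning, 142 Normal and 101 SAH oligodendrocytes. *Cyp51* was seen in 9.39% [8.00, 10.9] of 1598 Normal and 4.54% [3.86, 5.31] of 3324 SAH oligodendrocytes. *Hmgcs1* was seen in 6.13% [5.01, 7.42] and 3.79% [3.17, 4.50], and *Fdps* in 3.75% [2.88, 4.81] and 0.903% [0.610, 1.29]. Before thinning the shares were 17.4% and 10.2% for *Cyp51*, 11.6% and 8.23% for *Hmgcs1* and 5.29% and 2.48% for *Fdps*. All 3 genes were thus found in a smaller share of SAH nuclei at equal depth.

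The promoters of the synthesis genes share a sequence feature that the choice of genes did not use. SREBP factors are known to act with NF-Y, a factor that binds the pentamer CCAAT, so the 250 bases before the RefSeq start of each gene on GRCm38.p6 were searched on both strands. Windows were found for 28 of the 34 genes, 6 of which had several, and the first listed was used. The genes without a window were *Abcg1*, *Fdft1*, *Fdps*, *Npc1*, *Sqle* and *Stard4*. CCAAT was present in 14 of 16 synthesis windows (87.5%) and in 8 of 12 handling windows (66.7%), against 34.5% of the 27025 windows of all genes and 36.6% of the 8716 windows of genes compared in oligodendrocytes. The sterol regulatory element TCACNCCAC was present in 1 of 16 synthesis windows, that of *Hmgcs1*, in 0 of 12 handling windows and in 1.04% of all. The E-box CACGTG was present in 2 of 16, 2 of 12 and 6.05%, and the direct repeat of the LXR half-site, AGGTCA 2 times with any 4 bases between, in 0 of the members and 0.0111% of all. The 2 synthesis windows without CCAAT were those of *Acat2* and *Dhcr7*. *Dhcr7* had one of the lowest ratios, and its window number 3, not used in the count, holds CCAAT 85 and 49 bases before that start. The windows of *Lbr* and *Tm7sf2*, which did not lie lower, hold CCAAT. A match is a description of the letters and not a bound site, and no match overlapped one of another motif. Only these exact letters were searched, so a window without a match may still hold a site that departs from them. Shown here are 4 genes of the tail and *Hmgcs1*, picked among the genes at least 1.5-fold lower in SAH oligodendrocytes for holding a motif, and *Abca1*, which lay higher, each 5′ to 3′ on the strand of its gene with the motifs in capitals.
Hmgcs1, chr13:119690101-119690350, plus strand: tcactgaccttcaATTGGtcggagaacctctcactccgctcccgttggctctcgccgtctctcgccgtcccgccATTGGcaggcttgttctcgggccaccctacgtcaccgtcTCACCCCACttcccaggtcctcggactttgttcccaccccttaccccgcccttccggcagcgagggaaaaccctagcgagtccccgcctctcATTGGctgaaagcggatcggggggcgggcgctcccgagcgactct
Cyp51, chr5:4104698-4104947, minus strand: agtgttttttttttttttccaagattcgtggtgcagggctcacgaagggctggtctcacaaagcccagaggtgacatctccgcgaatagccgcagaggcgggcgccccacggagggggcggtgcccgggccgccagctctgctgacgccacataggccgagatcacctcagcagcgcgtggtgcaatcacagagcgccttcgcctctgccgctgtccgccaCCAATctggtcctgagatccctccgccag
Msmo1, chr8:64733579-64733828, minus strand: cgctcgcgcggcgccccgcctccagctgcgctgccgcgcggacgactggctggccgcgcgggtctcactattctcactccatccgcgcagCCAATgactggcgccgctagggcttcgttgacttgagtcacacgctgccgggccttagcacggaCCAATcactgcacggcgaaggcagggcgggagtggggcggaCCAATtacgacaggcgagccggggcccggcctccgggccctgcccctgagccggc
Ebp, chrX:8193513-8193762, minus strand: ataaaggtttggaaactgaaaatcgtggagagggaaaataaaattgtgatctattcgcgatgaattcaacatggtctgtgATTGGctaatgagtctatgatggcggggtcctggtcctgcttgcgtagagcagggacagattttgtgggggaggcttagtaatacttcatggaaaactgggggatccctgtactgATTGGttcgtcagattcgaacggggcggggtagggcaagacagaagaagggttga
Hsd17b7, chr1:169969206-169969455, minus strand: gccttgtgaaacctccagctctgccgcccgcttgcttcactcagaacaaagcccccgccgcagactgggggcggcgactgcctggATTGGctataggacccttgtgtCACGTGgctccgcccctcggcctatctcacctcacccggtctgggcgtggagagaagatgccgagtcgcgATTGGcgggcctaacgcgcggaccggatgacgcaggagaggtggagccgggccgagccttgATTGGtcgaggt
Abca1, chr4:53159896-53160145, minus strand: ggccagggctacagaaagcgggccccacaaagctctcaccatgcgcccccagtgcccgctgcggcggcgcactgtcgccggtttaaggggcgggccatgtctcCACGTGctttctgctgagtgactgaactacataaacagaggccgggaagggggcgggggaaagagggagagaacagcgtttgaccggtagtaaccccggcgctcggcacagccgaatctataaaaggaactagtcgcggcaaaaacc

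The windows of the 5 synthesis genes each hold CCAAT or its complement ATTGG, 1 time in *Cyp51*, 2 times in *Ebp* and 3 times in *Hmgcs1*, *Msmo1* and *Hsd17b7*. The *Hmgcs1* window also holds the sterol regulatory element, 137 to 129 bases before the start, and the *Hsd17b7* window an E-box. The *Abca1* window holds an E-box and no CCAAT. RefSeq and GENCODE, the annotation used for gene positions, place some starts differently, so part of a window can lie within the GENCODE gene. This was so for the last 49 bases of the *Cyp51* window with its 1 CCAAT, for 214 bases of the *Msmo1* window with all 3, and for 36 bases of the *Hsd17b7* window with 1 of 3. The *Hmgcs1*, *Ebp* and *Abca1* windows lie outside their genes. The matches in the *Idi1*, *Lbr* and *Tm7sf2* windows, not shown, also lie within the gene. The *Cyp51* gene, at chr5:4081145-4104746 on the minus strand of GRCm38, overlaps *Akap9* on the other strand, and the *Abca1* gene, at chr4:53030787-53159895 on the minus strand, overlaps no annotated gene.

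Several measures of the oligodendrocyte class moved along with the synthesis genes. The summed level of the 12 oligodendrocyte markers, mostly myelin genes, went from 27956 CPM in Normal to 16998 CPM in SAH, with 5 of 12 at least 1.5-fold lower and a median log2 ratio of -0.51. Mitochondrial UMIs made up 0.197% of the class in Normal and 0.144% in SAH. The part of either in the result was not tested. The 11 astrocyte markers, all detected, summed to 226 and 163 CPM, the 6 markers of oligodendrocyte precursors to 244 and 139 CPM, and the 11 microglia markers to 150 and 115 CPM. The 8 neuronal markers stood at 1570 and 1620 CPM, or 8.33% and 7.99% of their level in neurons. RNA from neurons at those shares would make up at most 9.38% of the level of any synthesis gene in Normal and 8.97% in SAH. Here and below, this takes such RNA to hold the genes in the proportions of neuronal nuclei, which was not tested. No such bound was made for RNA from astrocytes. In the nuclei with least neuronal RNA, 9 of 16 synthesis genes compared lay at least 1.5-fold lower. The share of all genes as far lower in these nuclei is not given.

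Gene length also went with the ratio. Among all oligodendrocyte genes under 10 kb the median log2 ratio was -0.49, and 44.8% lay at least 1.5-fold lower. From 10 to 30 kb the median was -0.17, with 19.8% as far lower, and from 30 to 100 kb it was 0.05, with 8.30% as far lower. Of the synthesis genes 4 are under 10 kb, where 2 lay at least 1.5-fold lower with a median of -0.62, close to the share of all genes of that length. The 10 to 30 kb range held 12, of which 7 lay as far lower, with a median of -0.65, and the 30 to 100 kb range held 2, of which 1 did, with a median of -0.46. Centred on genes of like length, the median of all 18 synthesis genes was -0.46, 7 lay at least 1.5-fold lower, and 1, *Tm7sf2*, as far higher. The share of all genes past 1.5-fold after this centring is not given, so the counts of 7 and 1 have no background beside them. *Cyp51* was then at -0.93, *Dhcr7* at -1.21, *Fdps* at -0.89 and *Hmgcs1* at -0.61. *Ebp* was at -0.54, *Msmo1* at -0.50 and *Pmvk* at -0.42, short of 1.5-fold.

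**Figure D3:**
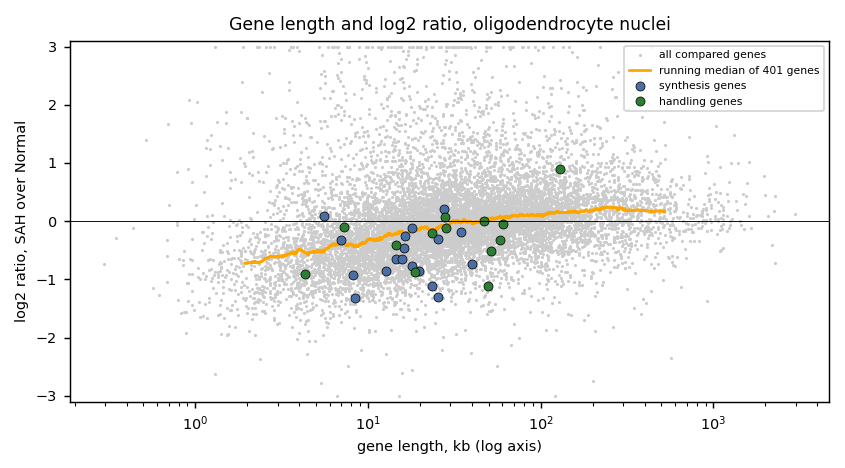
Log2 ratio of SAH over Normal against gene length in kb on a log axis, in oligodendrocyte nuclei. Grey points are all genes compared, drawn at 3 or -3 where they lie beyond, the orange line is their running median, and blue and green points are the synthesis and handling genes. Most synthesis genes between 10 and 30 kb lie under the line, and *Abca1*, at 129 kb, lies above it.

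Handling genes in oligodendrocytes lay closer to their Normal level than synthesis genes, by their medians. Of 13 compared, 3 lay at least 1.5-fold lower and 1 at least 1.5-fold higher, against the 18.7% and 14.7% of all genes. Below 0 stood 10 of 13, against 55.2% of all genes, and the median log2 ratio of the handling genes was -0.20. Their summed level was 1013 CPM in Normal and 983 CPM in SAH with *Abca1*, and 899 and 771 CPM without it. The control genes of SREBP all stood within 1.5-fold. *Srebf2*, the factor that drives sterol synthesis, lay at 119.97 [109, 132] CPM in Normal and 95.98 [89.4, 103] CPM in SAH, for a log2 ratio of -0.32 [-0.49, -0.15]. *Srebf1*, which mainly drives fatty acid genes, had a ratio of -0.20 [-0.47, 0.09], and *Scap* one of -0.51 [-0.76, -0.26]. *Insig1* and *Insig2*, the sterol-sensing anchors, stood at -0.10 [-0.31, 0.12] and -0.11 [-0.43, 0.20]. The interval of *Insig1* includes 0, and centred on genes of like length the gene stood at 0.29. Whether SREBP activity differed between the libraries was not tested.

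*Abca1*, the exporter that hands cholesterol to apolipoproteins, was the one gene of the pathway that lay at least 1.5-fold higher in SAH oligodendrocytes. It stood at 114 [103, 125] CPM in Normal, from 428 UMIs, and 212 [202, 222] CPM in SAH, from 1765 UMIs, for a log2 ratio of 0.90 [0.75, 1.06]. At equal depth it was seen in 10.3% [8.82, 11.9] of Normal and 19.2% [17.8, 20.5] of SAH oligodendrocytes, and before thinning in 20% and 37.1%. In neurons thinned in the same way the shares were 0.964% and 2.09%. The related exporter *Abcg1*, also an LXR target, lay at 119.7 and 116 CPM (-0.04 [-0.21, 0.12]), so the pair went apart. Of the LXR receptors, *Nr1h2* lay at 12.2 and 6.49 CPM (-0.91 [-1.51, -0.31]), while *Nr1h3* had 0 and 4 UMIs and *Mylip* 13 and 32, too few to compare.

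Proteins that move cholesterol out of lysosomes also went apart. *Npc1*, the membrane transporter, stood at 284.0 [267, 302] and 284.1 [273, 296] CPM (0.00 [-0.10, 0.11]). *Npc2*, the soluble partner that passes cholesterol to it, lay at 117 [107, 129] and 63.7 [58.4, 69.4] CPM (-0.88 [-1.06, -0.69]). *Soat1*, which stores cholesterol as esters, had 68 and 69 UMIs, or 18.0 and 8.30 CPM (-1.12 [-1.63, -0.62]). Thinned to 1000 UMIs per nucleus, its ratio was -0.41, under 1.5-fold. *Stard4*, a carrier between membranes, had a ratio of -0.41 [-1.02, 0.21]. *Cyp46a1* lay at 9.29 and 9.74 CPM (0.07 [-0.52, 0.68]), and RNA from neurons could make up at most 42.5% and 27.7% of that.

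**Figure D4:**
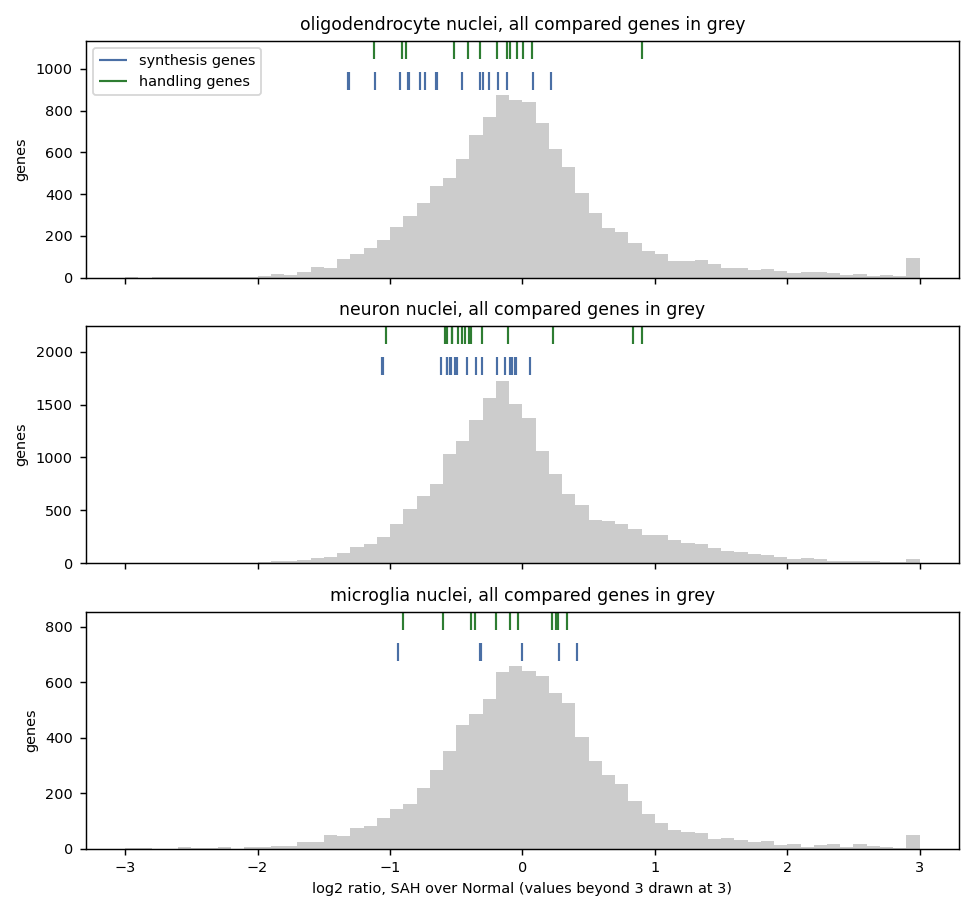
Distribution of log2 ratios of SAH over Normal for all genes with at least 50 UMIs in a class (grey, number of genes per bin of 0.1), with each synthesis gene (blue) and handling gene (green) as a tick. In oligodendrocytes the synthesis ticks run from -1.32 to 0.22, with a median of -0.65 against -0.07 for all genes. In microglia the few ticks spread around the centre.

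In neurons, where 34 of 34 genes were compared, ratios were small and mostly below 0. Of 19 synthesis genes, 3 lay at least 1.5-fold lower and 0 as far higher, against 17.0% of all 19437 genes lower and 16.1% higher, and 20.4% and 9.96% of genes nearest in level. The median log2 ratio was -0.42 over the synthesis genes and -0.11 over all genes. Of the synthesis genes 18 of 19 stood below 0, against 59.0% of all genes. *Fdps* lay at 7.53 [6.97, 8.11] and 3.62 [3.29, 3.96] CPM (-1.06 [-1.23, -0.89]). *Ebp* lay at 7.16 and 3.46 CPM (-1.05 [-1.23, -0.87]), and *Cyp51* at 52.7 and 34.3 CPM (-0.62 [-0.68, -0.56]). These 3 genes lay past 1.5-fold, and the same 3 did in oligodendrocytes. The share of all genes as far lower in both classes is not given. *Fdps* and *Ebp* are under 10 kb, where 33.3% of all neuron genes lay as far lower. *Cyp51* is between 10 and 30 kb, where 18.2% did. *Cyp51* in neurons fell short of 1.5-fold in 5 of 14 other settings, up to -0.40 when centred on genes of like length. *Hmgcs1* (-0.49 [-0.57, -0.41]), *Sqle* (-0.55 [-0.63, -0.46]), *Msmo1* (-0.54 [-0.61, -0.47]), *Nsdhl* (-0.57 [-0.70, -0.44]) and *Dhcr7* (-0.57 [-0.69, -0.44]) stood just short of it. *Fdft1*, *Lss*, *Tm7sf2*, *Lbr* and *Acat2* had ratios between -0.09 and 0.06. Centred on genes of like level, the median of the synthesis genes was -0.23. The class pools neuron types whose marker levels also differed between the libraries. Striatal projection markers summed to 1099 CPM in Normal and 705 CPM in SAH, and inhibitory markers to 296 and 210 CPM. Excitatory markers summed to 1207 and 1143 CPM and thalamic markers to 283 and 329 CPM. The part of this mix in the ratios was not tested.

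Among the handling genes of neurons 1 of 15 lay at least 1.5-fold lower and 2 as far higher. Of all genes 17.0% and 16.1% did, and the median log2 ratio of the handling genes was -0.44. With nuclei of at least 1000 UMIs thinned to 1000 UMIs, 7 handling genes lay at least 1.5-fold lower. Among them were *Srebf1* at -0.92 and *Scap* at -0.91. *Srebf1* was then seen in only 39 of 7984 Normal and 27 of 10431 SAH neurons, and *Scap* in 356 and 248. Thinning was a single random draw, and the cause of this shift was not tested. The share of all genes as far lower after thinning is not given, so the count of 7 has no background beside it. *Stard4* lay at 4.12 [3.71, 4.55] and 7.70 [7.23, 8.20] CPM, with a log2 ratio of 0.90 [0.73, 1.08]. *Abca1* lay at 10.0 [9.39, 10.7] and 17.9 [17.2, 18.6] CPM, with a log2 ratio of 0.83 [0.72, 0.95]. *Nr1h2* went the other way, from 5.93 to 2.90 CPM (-1.03 [-1.23, -0.84]). *Abca1* was thus higher and *Nr1h2* lower in SAH in both neurons and oligodendrocytes. *Npc1* had a ratio of 0.23 [0.17, 0.29], while *Npc2* stood at -0.46 [-0.60, -0.32]. The SREBP genes lay lower without passing 1.5-fold: *Srebf2* at -0.53 [-0.58, -0.48], *Scap* at -0.53 [-0.60, -0.46], *Insig1* at -0.58 [-0.69, -0.47], *Insig2* at -0.39 [-0.46, -0.32] and *Srebf1* at -0.40 [-0.63, -0.17]. *Cyp46a1*, the gene most particular to neurons by its known role, lay at 47.4 [46.0, 48.8] and 33.8 [32.8, 34.8] CPM, with a log2 ratio of -0.49 [-0.55, -0.43]. *Soat1* (-0.31), *Mylip* (-0.44), *Nr1h3* (-0.57) and *Abcg1* (-0.11) also stood below 0.

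The neuronal subsets were read by their own markers, and whether they differ from each other was not tested. In 4054 Normal and 5419 SAH excitatory nuclei, 8 of 19 synthesis genes lay at least 1.5-fold lower, against 18.1% of all genes. In 1584 and 1724 inhibitory nuclei 6 of 19 did, against 19.4%, and in 290 and 525 thalamic excitatory nuclei 6 of 17, against 14.7%. In the remaining 2120 and 2846 neurons 3 of 19 did, against 18.0%. No synthesis gene lay as far higher in any subset, where 15.0%, 9.50%, 9.80% and 12.1% of all genes did. *Fdps* was at least 1.5-fold lower in all 4 subsets, with ratios from -1.30 in thalamic to -0.74 in inhibitory nuclei, and *Cyp51* in 3, at -0.66 in excitatory, -0.62 in inhibitory and -0.90 in thalamic nuclei.

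*Abca1* stood higher in SAH in each neuronal subset. In thalamic nuclei it lay at 16.5 and 38.8 CPM (1.23 [0.87, 1.61]), and in excitatory nuclei at 7.62 and 15.0 CPM (0.97 [0.81, 1.14]). The inhibitory nuclei began at a like level to the thalamic ones and ended lower, at 16.6 and 22.0 CPM (0.41 [0.18, 0.64]). *Stard4* had a ratio of 1.12 [0.89, 1.35] in excitatory nuclei, of 0.54 [0.02, 1.08] in inhibitory nuclei and of 0.30 [-0.34, 0.98] in thalamic nuclei, the last from 96 UMIs. *Srebf2* stood at -0.68 in excitatory nuclei and between -0.36 and -0.33 in the others. *Cyp46a1* was lower by a similar measure in all 4, between -0.53 and -0.44.

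**Figure D5:**
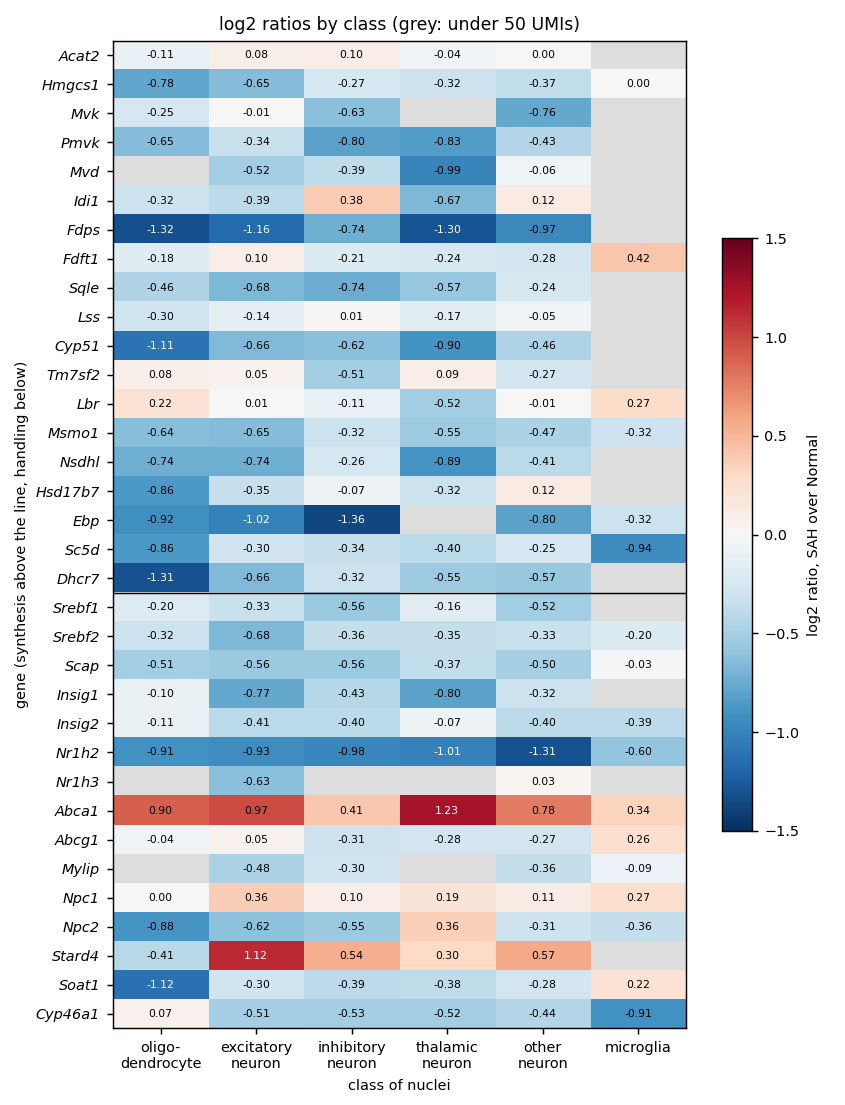
Log2 ratio of SAH over Normal for each gene (rows) in oligodendrocytes, 4 neuronal subsets and microglia (columns), from blue (lower in SAH) to red (higher), with the value printed in each cell. Grey cells have under 50 UMIs. *Abca1* is red in every column, from 0.34 in microglia to 1.23 in thalamic neurons, and *Nr1h2* blue in every column, from -1.31 to -0.60.

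In microglia the pathway could be read only in part. Of 6 synthesis genes compared, 1 lay at least 1.5-fold lower and 0 as far higher, against 14.8% and 16.2% of all 8808 genes, with a median log2 ratio of -0.16 and a summed level of 232 and 230 CPM. The 1 gene was *Sc5d*, from 33 and 27 UMIs, with 23.5 and 12.2 CPM (-0.94 [-1.73, -0.16]). *Hmgcs1* stood at 19.96 CPM in both libraries (0.00 [-0.72, 0.74]). *Fdft1* (0.42), *Lbr* (0.27), *Msmo1* (-0.32) and *Ebp* (-0.32) all had intervals that include 0. The other 13 synthesis genes had from 12 to 46 UMIs in all. *Mvk* had 0 UMIs in Normal, where 3 counts would be 2.14 CPM, and 12 UMIs or 5.44 CPM in SAH, and *Mvd* had 4 and 23 UMIs. Neuronal markers stood at 2348 and 2061 CPM in this class, and RNA from neurons could make up as much as 48.5% of *Cyp51* in Normal.

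Of 11 handling genes compared in microglia 2 lay at least 1.5-fold lower and 0 as far higher, against 14.8% and 16.2% of all genes. The median log2 ratio of the handling genes was -0.09. *Abca1* had a ratio of 0.34 [0.20, 0.47], and was seen in 36.2% [32.7, 39.8] of Normal and 42.1% [39.1, 45.0] of SAH nuclei at equal depth. These shares leave out 218 Normal and 53 SAH microglia with under 1000 UMIs, so the libraries were cut unequally. *Npc2* lay at 227 and 177 CPM (-0.36 [-0.58, -0.14]) and *Npc1* at 141 and 170.1 CPM (0.27 [0.02, 0.53]), the same split as in neurons. The 2 lower genes were *Cyp46a1*, at 22.1 and 11.8 CPM (-0.91 [-1.72, -0.11]), and *Nr1h2*, at 18.5 and 12.2 CPM (-0.60 [-1.43, 0.24]). Over both libraries together, *Cyp46a1* had 57 UMIs and *Nr1h2* had 53. RNA from neurons could make up at most 26.7% of the *Cyp46a1* level in Normal and 29.1% in SAH. *Abcg1* (0.26), *Soat1* (0.22), *Mylip* (-0.09), *Scap* (-0.03), *Srebf2* (-0.20) and *Insig2* (-0.39) had intervals that include 0. The 11 microglia markers summed to 23548 CPM in Normal and 13479 CPM in SAH, and 89.6% of SAH nuclei in the class also lay in a microglia cluster, against 99.9% in Normal. The part of either in these ratios was not tested.

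*Nr1h2* lay lower in SAH in every class, and it is the shortest of the 34 genes, at 4336 bases (chr7:44549616-44553951, minus strand of GRCm38). Centred on genes of like length, its log2 ratio was -0.44 in oligodendrocytes, -0.73 in neurons and -0.08 in microglia. *Abca1* is the longest, at 129109 bases, and centred in the same way it stood at 0.76 in oligodendrocytes, 0.79 in neurons and 0.17 in microglia. *Stard4*, of 14508 bases, stood at 1.15 in neurons. The ratios of *Abca1* and *Stard4* in neurons, and of *Abca1* in oligodendrocytes, thus remained past 1.5-fold after this step, and *Nr1h2* did so in neurons alone.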

How the data were processed

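The authors deposited raw UMI counts per gene and nucleus from 10x single-nucleus libraries, aligned to mm10 with intronic reads counted, by Cell Ranger 6.1.2 per the file headers and 5.0.0 per the labels. No depth or batch correction had been applied. Nuclei with 300 to 7000 genes, under 10% mitochondrial and 3% haemoglobin UMIs and under 100000 UMIs were kept, which removed 71 Normal and 29 SAH nuclei. Doublets were scored with Scrublet in scanpy 1.11.5. At a rate of 0.8% per 1000 nuclei, 1178 and 2644 top-scoring nuclei were left out, and 10955 and 15536 stayed.

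Marker UMIs per 10000 UMIs set the classes, at least 30 for oligodendrocytes, 60 for neurons and 30 for microglia, and at least 8, 4 and 20 for excitatory, inhibitory and thalamic subsets, thresholds set after the marker distributions had been seen. Counts were summed per class and library. Levels have exact Poisson intervals, ratios exact conditional binomial intervals and shares of nuclei exact Clopper-Pearson intervals, all at 95%. Genes with at least 50 UMIs over both libraries were compared and counted at 1.5-fold. Likeness in level or length used the nearest 200 genes, with lengths from GENCODE on GRCm38. All 34 members are described. Genes of other lists were named where they had at least 200 UMIs, by size of ratio. The members and lists were chosen with earlier results of these data known. Scripts were tested on simulated data. Python 3.11.15, numpy 2.4.6, pandas 2.3.3 and scipy 1.17.1 were used.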

Additional observations from a re-analysis of the deposited data

How the results depend on the processing

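The study had 1 library per condition, so no library could be left out, and none of the values has an error between mice. No paired analysis was possible because each group has a single sample and no test was made. Over 14 alternative settings and 2 more chosen after seeing the data (nuclei of matched depth, and nuclei with little neuronal RNA), 155 counts stayed within 1.5 times their value and 33 did not, and 1019 values of single genes moved by less than their counting interval and 115 by more. The medians in oligodendrocytes and neurons stayed below 0 under all of them, while those in microglia crossed 0, from -0.22 to 0.26 for synthesis and from -0.21 to 0.25 for handling genes. In oligodendrocytes, centring on genes of like length put 1 synthesis gene at least 1.5-fold higher. A minimum of 200 UMIs left 6 synthesis and 1 handling genes lower. *Fdps*, *Dhcr7*, *Hsd17b7*, *Pmvk*, *Nr1h2* and *Soat1* have fewer UMIs than that and were no longer compared, so their ratios did not change. The number of genes compared at that minimum is not given, nor is the share of all genes. A limit of 2-fold left 3 synthesis and 1 handling genes lower and 0 handling genes higher. The share of all oligodendrocyte genes past 2-fold is not given, so these counts have no background beside them.

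In neurons, handling genes lower numbered 2 under stricter limits, by clusters, centred on like level and at matched depth, 3 under a stricter gate, 4 by the mean per nucleus and 7 in thinned nuclei. Synthesis genes lower numbered 5 by the mean per nucleus, and 0 handling genes were higher at 2-fold. In microglia, handling genes lower numbered 1 with no doublet removal, no limits, by clusters, centred on like level or like length and with little neuronal RNA. They numbered 0 under a stricter gate, in thinned nuclei, at 200 UMIs, at 2-fold and at matched depth. Synthesis genes lower in microglia numbered 2 by the mean per nucleus and 0 in thinned nuclei, at 200 UMIs, at 2-fold, at matched depth and with little neuronal RNA, and 1 was higher with a minimum of 20 UMIs. A gene under the UMI minimum of a setting drops out of its count, and no synthesis gene of microglia reached 200 UMIs. *Sc5d* and *Cyp46a1* in microglia were each compared in 10 settings, and lay at least 1.5-fold lower in all 10. Thinned nuclei were not among these settings. There *Sc5d* was seen in 1.80% of 721 Normal and 1.70% of 1120 SAH microglia, so its shares hardly differed at equal depth. *Cyp46a1* was seen in 2.08% and 0.893%. *Nr1h2* in microglia did so in 5 of 9. The cause of the shifts in these counts was not tested. The shares of all genes past the same fold under these settings are not given, so these counts have no background beside them. *Abca1* in oligodendrocytes ran from 0.76 to 0.97 and *Cyp51* from -1.16 to -0.93 over 15 settings. *Fdps* ran from -2.10 in thinned nuclei to -0.89 centred on like length in oligodendrocytes, and from -1.71 to -0.81 in neurons. *Soat1* in oligodendrocytes ran from -1.63 with little neuronal RNA to -0.41 in thinned nuclei.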

Other observations

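Other genes of lipid metabolism were read in the same way, as 5 further lists with no test. Their counts stand beside those of all genes compared, of which 18.7% lay at least 1.5-fold lower and 14.7% as far higher in oligodendrocytes, 17.0% and 16.1% in neurons, and 14.8% and 16.2% in microglia. In oligodendrocytes, 2 of 12 fatty acid and membrane lipid genes compared lay at least 1.5-fold lower in SAH and 2 as far higher, with a median log2 ratio of -0.10. *Acaca*, the carboxylase that commits acetyl-CoA to fatty acids, lay at 447.5 CPM in Normal and 1953 CPM in SAH, for a log2 ratio of 2.13 [2.05, 2.20]. *Scd3*, a desaturase from a family of near copies whose reads may be shared, lay at 35.8 and 149.6 CPM (2.06 [1.80, 2.33]). The elongase *Elovl6* (-0.74 [-0.90, -0.58]) and the desaturase *Scd1* (-0.62 [-0.88, -0.36]) lay lower. In neurons 0 of 14 lay as far lower and 1 higher, with a median of -0.17, and *Fasn*, the fatty acid synthase, stood at -0.56 [-0.73, -0.38]. In microglia 1 of 8 lay lower and 3 higher, with a median of 0.16, and *Acaca* went from 50.6 to 153 CPM (1.60 [1.23, 1.99]).

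Among lipoprotein receptors, 2 of 9 genes lay lower and 0 higher in oligodendrocytes, with a median of -0.43, 1 of 9 lower and 0 higher in neurons (-0.43), and 0 of 6 lower and 1 higher in microglia (0.28). *Sort1*, a sorting receptor, went from 319 to 167 CPM in oligodendrocytes (-0.94 [-1.05, -0.82]) and from 202 to 297 CPM in microglia (0.55 [0.35, 0.76]), so the classes went opposite ways, a difference that was not tested. Of the sterol transport genes, 4 of 14 lay lower and 0 higher both in oligodendrocytes (-0.31) and in neurons (-0.23), and 2 of 12 lower and 3 higher in microglia (-0.09). *Pgrmc1*, a sterol-binding membrane protein, had ratios of -0.83 [-1.08, -0.59] in oligodendrocytes and -0.88 [-0.93, -0.84] in neurons.

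Of the genes that process SREBP or turn over its sterol-sensing partners, 1 of 8 lay lower and 1 higher in oligodendrocytes (0.12), 0 and 0 of 8 in neurons (-0.10), and 1 and 1 of 7 in microglia (-0.25). *Erlin2*, a scaffold of the endoplasmic reticulum, lay at 44.6 and 77.6 CPM in oligodendrocytes (0.80 [0.55, 1.05]). Of other efflux and oxysterol genes, 2 of 9 lay lower and 1 higher in oligodendrocytes (-0.17), 3 of 10 lower and 1 higher in neurons (-0.42), and 2 of 7 lower and 0 higher in microglia (-0.25). *Apoe*, the gene of the main apolipoprotein of the brain, went from 698 to 299.7 CPM in oligodendrocytes (-1.22 [-1.30, -1.14]). It went from 10.8 to 4.45 CPM in neurons (-1.28 [-1.43, -1.13]), and stood at 217 and 211 CPM in microglia (-0.04 [-0.25, 0.17]). How much of these levels came from RNA of other cells was not tested. *Abca7*, a lipid transporter, went from 16.0 to 6.70 CPM in neurons (-1.26 [-1.38, -1.14]), where *Cyp7b1*, which breaks down oxysterols, stood at 50.6 and 79.9 CPM (0.66 [0.61, 0.71]).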
